A study of Mus musculus with 4 samples.

Results

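Among 30515 nuclei from the dissected cortex of GCLC-KO mice, 86 (0.282%) had the RNA profile by which indirect-pathway spiny projection neurons of the striatum are known, and are called Drd2 spiny nuclei here. They were chosen by their UMIs, the molecular tags by which single RNA molecules are counted. A nucleus needed at least 1 UMI of Gad1 or Gad2, 0 of Slc17a7 and of Drd1, at least 2 of Rarb, and a UMI of at least 2 of the 4 genes Drd2, Adora2a, Penk and Gpr6. The genes read by this gate are therefore given as a description, without a test.

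The mice carried floxed Gclc (strain C57BL/6NTac-Gclctm1a(EUCOMM)Wtsi/WtsiCnbc) together with CaMKII-Cre, which acts in forebrain neurons, and are models of neuronal glutathione deficiency. No treatment was given, and all libraries came from GCLC-KO mice, without a wild-type library. Each library came from its own mouse: 3M-1 and 3M-2 from mice 3 months old, and 6M-1 and 6M-2 from mice 6 months old. The labels number the replicates 1 or 2 at both ages. Nuclei were sorted as DAPI-positive singlets, and the cortical regions had been dissected for their rod-shaped microglia, so the number of striatal-type nuclei in a library can follow the dissection. The library totals, 3-month mice first, were 64857084, 64299223, 71255054 and 63429297 UMIs. After the study's limits of at most 7000 genes and at most 1% mitochondrial UMIs, 6802, 8750, 8111 and 6852 nuclei remained, and values for 4 libraries are given in this order throughout.

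Spiny projection neurons are the GABA neurons that make up most of the striatum and carry its output. Those of the indirect pathway express the dopamine receptor Drd2, the adenosine receptor Adora2a and Penk, the precursor of the enkephalins, whereas those of the direct pathway express Drd1, Tac1 and Pdyn. Dopamine acts on both through cAMP, with Drd1 stimulating adenylyl cyclase and Drd2 inhibiting it, and the retinoic acid receptor Rarb takes part in the differentiation of striatal neurons.

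Drd2 spiny nuclei numbered 24 in 3M-1, 33 in 3M-2 and 29 in 6M-1, and there were 0 in 6M-2. As a share of the filtered nuclei this was 0.353% in 3M-1 (95% Clopper-Pearson interval 0.226% to 0.525%), 0.377% in 3M-2 (0.260% to 0.529%) and 0.358% in 6M-1 (0.240% to 0.513%). In 6M-2 it was 0 of 6852 nuclei, which allows a share of up to 0.0438% by the limit of 3 counts and 0.0538% by the upper end of the 95% Clopper-Pearson interval. The library 6M-2 thus stood apart from the other 3, whose intervals overlapped one another, and these intervals cover counting error only. Drd1 nuclei, described below, numbered 27, 22, 24 and 7 in the 4 libraries, and of these 22, 18, 20 and 0 had at least 2 Meis2 UMIs.

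The mean share was 0.365% at 3 months and 0.179% at 6 months, a difference of −0.186 percentage points (two-sided exact permutation test, p = 0.667, where 0.333 is the smallest p that 2 mice against 2 allow). Without 6M-2 the difference was −0.00745 points, and without 6M-1 it was −0.365 points. As a share of the nuclei with a Gad1 or Gad2 UMI, the values were 1.81%, 2.21%, 1.71% and 0%, and the difference was −1.16 points (exact two-sided permutation test, p = 0.333), or −0.304 points without 6M-2. The difference in filtered nuclei thus rested on 6M-2, and a change with age was not detectable in this design.

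The missing nuclei of 6M-2 were already fewer at the Rarb step of the gate. Nuclei with Gad1 or Gad2, without Slc17a7 and Drd1, numbered 933, 1049, 1224 and 872 in the 4 libraries. Those that also had 2 Rarb UMIs numbered 125, 121, 165 and 76, and the marker step left 24, 33, 29 and 0. The median depth of the filtered nuclei in 6M-2, 7592 UMIs, lay within the range of the other libraries, 5994 to 8140 UMIs.

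Over all filtered nuclei of a library, Penk was at 7.53, 9.41, 6.34 and 2.33 CPM, the usual scaling of a gene's UMIs to all UMIs of a sum. Adora2a was at 1.60, 1.49, 1.21 and 0.321 CPM, and Rarb at 35.7, 36.2, 41.6 and 20.2 CPM, so that 6M-2 was the lowest library for these 3 genes without any gate. Meis2, a transcription factor of striatal and other neurons, did not follow this order, at 224, 201, 191 and 200 CPM. Among nuclei with Gad1 or Gad2 and without Slc17a7, those with at least 10 Meis2 UMIs, a limit chosen after the values had been seen, numbered 109, 87, 108 and 11. Fewer spiny neurons in the dissected tissue and a loss of these neurons in 1 mouse cannot be told apart from these counts. 6M-2 gave no sum of Drd2 spiny nuclei, so every comparison of expression below, shares of nuclei included, rests on 3M-1, 3M-2 and 6M-1.

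**Figure D1:**
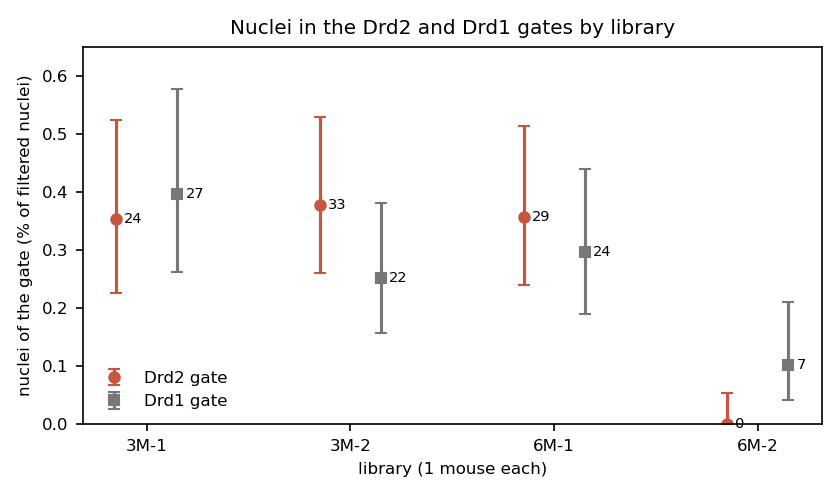
Share of Drd2 spiny nuclei (circles) and of the Drd1 nuclei described below (squares) in percent of the filtered nuclei of each library, with 95% Clopper-Pearson intervals as error bars and the number of nuclei beside each point. The circles of 3M-1, 3M-2 and 6M-1 lie between 0.353% and 0.377%, and that of 6M-2 is at 0.

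The 86 nuclei had a median depth of 9530.5 UMIs (range 3713 to 21041). The medians were 10837.5, 6919 and 10112 UMIs for 3M-1, 3M-2 and 6M-1, an order kept below for values of 3 libraries, and the sums were 267274, 241323 and 310218 UMIs. No barcode was shared between Drd2 spiny nuclei of different libraries, and 1 of the 86 barcodes also occurred in another library. Scrublet called 0, 4 and 7 of them doublets, and each comparison was repeated without these 11 nuclei.

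Of the genes that defined the nuclei, Penk (chr4:4133531-4138819, − strand of GRCm38) was detected in 81 nuclei, Adora2a (chr10:75316877-75334784, + strand) in 64, Drd2 (chr9:49340627-49408177, + strand) in 62 and Gpr6 (chr10:41069977-41072285, − strand), an orphan G protein-coupled receptor, in 8. At the limit of 2 of these genes stood 47 nuclei, while 35 had 3 and 4 had all 4. The level of Drd2 was 153, 211 and 181 CPM. Adora2a was at 176, 153 and 126 CPM and Penk at 367, 427 and 300 CPM in the same order. For Drd2 and Penk 3M-2 was the highest library and for Adora2a 3M-1.

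Rarb (chr14:16430839-16819156, − strand) was at 1268, 1123 and 1228 CPM, with a median of 11.5, 7 and 11 UMIs per nucleus. Its limit hardly mattered: of the nuclei that met every other condition, 82 had 3 or more Rarb UMIs and 4 had 2, against 3 with 1 and 9 with 0. Another 17 nuclei failed only by an Slc17a7 UMI, of which 7 had exactly 1, and 16 failed only for want of a Gad1 or Gad2 UMI.

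The RefSeq promoter window of Rarb holds a direct repeat of the form known for retinoic acid response elements, to which receptors of this family bind. It is shown because Rarb had the most UMIs among the genes that chose these nuclei. The stretch lies on the − strand of GRCm38.p6 at chr14:16575510-16575532, before the RefSeq start site and within the gene's annotated span. Capitals mark the half-sites, spaced by 5 bases:
Rarb: aagGGTTCAccgaaAGTTCActc
The pattern searched was 2 copies of NGNTCA with 5 bases between them, on both strands, and 283 of 32851 promoter windows of 300 bases (0.861%) held it. The match describes these letters, and binding was not measured.

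The markers that the gate did not read were used to check the name. Drd2 spiny nuclei had UMIs of all 23 pan-spiny genes listed, but so did every population they were compared with. Together the 23 took 17903, 18618 and 18490 CPM in Drd2 spiny nuclei and 11118, 14948 and 12726 CPM in the Drd1 nuclei described below. They took 5296, 5227 and 4726 CPM in the interneurons and 8738, 8821 and 7553 CPM in the excitatory nuclei described below. Phactr1, a regulator of actin and protein phosphatase 1, was the most abundant of the 23 in Drd2 spiny nuclei at 6364, 6394 and 6441 CPM. Meis2 had at least 2 UMIs in all 86 nuclei. Ppp1r1b, which encodes the dopamine-regulated phosphatase inhibitor DARPP-32, was detected at 78.6, 41.4 and 29 CPM (21, 10 and 9 UMIs).

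Of the direct-pathway list, Pdyn, Isl1, Slc35d3, Chrm4 and Ebf1 had 0 UMIs in the 818815 UMIs of the 3 sums, where a count of 0 allows up to 3.66 CPM. Tac1, the precursor of substance P, had 2 UMIs, Eya1 had 3 and Sfxn1 had 0, 5 and 11. Sfxn1, at 42.5, 38.3 and 84.8 CPM in the Drd1 nuclei described below, did not pass the test against them (−1.58 ± 0.59; edgeR adjusted p = 0.204). Genes of other cell types were present at various levels. Of the 10 interneuron genes, Pvalb, Lhx6, Chat and Slc5a7 were at 0 and 6 were detected (Sst, Vip, Lamp5, Npy, Adarb2 and Nxph1), with a sum of 59.9, 99.5 and 142 CPM. Of the astrocyte list, Aqp4, Gja1, Gfap and Aldh1l1 were at 0. The 7 excitatory genes summed to 737, 605 and 551 CPM, with Camk2a the most abundant.

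A list of 11 genes of other GABA neurons that can hold Penk or Rarb (olfactory bulb, amygdala and septum) summed to 580, 402 and 1019 CPM. Of these 11, Eomes, Th, Zic1 and Zic2 were at 0 and 7 were detected. Zfp804a was the most abundant, at 344, 265 and 658 CPM, and Synpr, a synaptic vesicle protein, was at 127, 66.3 and 161 CPM. Both were higher than in excitatory nuclei (log2 fold change 1.52 ± 0.14 and 1.03 ± 0.19; edgeR quasi-likelihood test, Benjamini-Hochberg adjusted p = 1.85e-25 and 2.86e-06), while Trpc4 (−1.06 ± 0.27) and Foxp2 (−0.66 ± 0.20) were lower, each lost when a library was left out. Against the interneurons described below, Synpr (−2.17 ± 0.19), Trpc4 (−1.79 ± 0.30) and Tshz1 (−1.96 ± 0.37) were lower and 0 were higher.

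The 7 indirect-pathway genes that the gate did not read summed to 846, 808 and 729 CPM in Drd2 spiny nuclei. This sum did not set them apart, since it was 980, 1113 and 1273 CPM in the interneurons and 996, 890 and 1215 CPM in the Rarb-positive nuclei with neither Drd1 nor 2 markers. Most of it there came from Ptprm, a receptor tyrosine phosphatase, at 801, 961 and 1119 CPM in the interneurons, which was lower in Drd2 spiny nuclei (log2 fold change −2.10 ± 0.15). Of the 6 tested against interneurons, Gucy1a1, Upb1, Grik3, Oprd1 and Sp9 were higher and Ptprm lower, and Sp9 was lost without 3M-1 (edgeR adjusted p = 0.22).

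The conditions of the gate also divided the Rarb-positive GABA nuclei as a whole, given here as a description. Of 567 nuclei with Gad1 or Gad2, without Slc17a7 and with at least 2 Rarb UMIs, 86 were Drd2 spiny, 80 had a Drd1 UMI and fewer than 2 of the 4 markers, 0 had both, and 401 had neither. The 401 numbered 101, 88, 136 and 76 in the 4 libraries, of which 333 had none of the 4 markers and 68 had 1.

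The shares of nuclei with at least 1 UMI were compared after every nucleus had been thinned to 2000 UMIs, which kept all 86 Drd2 spiny nuclei. Oligodendrocyte-type nuclei of the same 3 libraries served as the background, which holds free RNA and any RNA of their own for a gene. Their medians before thinning were 3000, 1813 and 2104 UMIs, against 10837.5, 6919 and 10112 in Drd2 spiny nuclei. Of the oligodendrocyte-type nuclei, 1155 of 2822 were shallower than 2000 UMIs and were left out, so that the background came from the deeper ones. Meis2 was detected in 90.7% of Drd2 spiny nuclei (95% Clopper-Pearson interval 82.5% to 95.9%), against 11.6% of oligodendrocyte-type nuclei. Rgs9, a regulator of G protein signalling that is enriched in the striatum, was detected in 41.9% (31.3% to 53%), against a background of 0.720%. Both lay far above the background. Gclc was detected in 10.5% (4.90% to 18.9%) against 6.12%, and whether its signal in either population came from free RNA was not tested. Foxp2, a forkhead factor, was detected in 6.98% of Drd2 spiny nuclei (2.60% to 14.6%) against a background of 1.38%. Without thinning, Meis2 was detected in 100% and Rgs9 in 80.2% of the Drd2 spiny nuclei.

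The first comparison was with nuclei that held Drd1. Drd1 nuclei, taken from the same libraries with at least 2 Rarb UMIs, at least 1 Drd1 UMI and no Drd2 or Adora2a UMI, numbered 27, 22 and 24. They were not of 1 kind. At least 2 Meis2 UMIs were present in 22, 18 and 20 of them, and of their Nos1 and Npy UMIs, 123 of 125 and 47 of 48 in 3M-1 and 28 of 28 and 41 of 42 in 3M-2 came from the few nuclei without. At least 2 UMIs of Lhx6 and Adarb2 were present in 26, 18 and 17 Drd1 nuclei, against 0, 0 and 1 Drd2 spiny nuclei. The name Drd1 nuclei is therefore used in place of a cell type, and the test was repeated with only the Drd1 nuclei that had at least 2 Meis2 UMIs.

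Of 5301 genes tested, 280 (5.28%) passed, 115 higher and 165 lower in Drd2 spiny nuclei (2.17% and 3.11%). With only the Meis2-positive Drd1 nuclei, 328 passed, of which 209 were among the 280. Of the 42 called genes that are named in this comparison or belong to its lists, 37 were tested there and 32 passed. Foxp1, Htr4, Nxph1, Pde7b and Tcf4 did not pass, and Grik1, Kcnip1, Kcnmb2, Npy and Tacr1 were not tested there. With Drd1 nuclei of at least 2 Drd1 UMIs, 8 of 38 tested did not pass (Adcy2, Gnb5, Gria4, Grik1, Gucy1a1, Htr4, Pde7b and Phactr1). By DESeq2, 11 of the 42 did not (Foxp1, Gnb5, Gria4, Grik3, Htr4, Id4, Kcnj3, Npy, Nxph1, Oprd1 and Tacr1). The mouse was a block in this test and in the 2 that follow, with 3 mice, which the labels describe as separate replicates. The spread behind the p-values was only partly that of a gene between these mice, with 2 residual degrees of freedom. The trend over genes gave the larger part, with prior degrees of freedom of 7.37 here and 19.05 against interneurons. Against excitatory nuclei this spread was taken from the trend alone, so p-values there do not measure the spread of a single gene.

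The 10 genes higher in Drd2 spiny nuclei with the smallest adjusted p included Adk, Epha4 and Efna5. Adk, the kinase that clears adenosine, was at 909, 638 and 587 CPM, against 88.5, 76.6 and 107 CPM in Drd1 nuclei. Every Drd2 spiny sum lay above every Drd1 sum, and the log2 fold change was 2.99 ± 0.22 (SE, n = 3 mice; edgeR quasi-likelihood test, Benjamini-Hochberg adjusted p = 0.00016). Epha4, an ephrin receptor and a marker of the striatal matrix, was at 370, 327 and 319 CPM against 84.9, 109 and 62.5 CPM (log2 fold change 2.04 ± 0.22). Efna5, an ephrin ligand, was at 348, 597 and 493 CPM against 120, 98.5 and 89.3 CPM (2.20 ± 0.24). For both ephrin genes every Drd2 spiny sum lay above every Drd1 sum.

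The other genes of this group were Mgat4c, a glycosyltransferase (2350, 2043 and 1870 CPM against 460, 443 and 326), the protocadherin Pcdh11x (509, 510 and 471 against 70.8, 65.7 and 53.6), Kctd8, an auxiliary subunit of GABA-B receptors, Sgcz, Zfhx3, Prex2 and March1. Their log2 fold changes ranged from 2.06 for Sgcz to 2.99 for Pcdh11x, and all 10 were called in the same direction in each alternative in which they were tested. Epha4 was detected in 50% of the thinned Drd2 spiny nuclei (39.0% to 61.0%) and in 9.59% of the 73 Drd1 nuclei (3.94% to 18.8%). In oligodendrocyte-type nuclei, which may hold Epha4 RNA of their own, it was detected in 12.1%.

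The 10 genes lower in Drd2 spiny nuclei with the smallest adjusted p included Ebf1, Foxp2, Tshz1 and Tox. Ebf1, a factor of direct-pathway neurons, was at 248, 323 and 161 CPM in Drd1 nuclei and at 0 UMIs in Drd2 spiny nuclei, at least 65.3-fold lower against the limit of 3 UMIs over the group. Foxp2, a forkhead factor of striatal and other neurons, was at 67.3, 41.4 and 116 CPM against 941, 892 and 683 CPM (log2 fold change −3.41 ± 0.31; edgeR quasi-likelihood test, Benjamini-Hochberg adjusted p = 0.000325), with no overlap between the populations. Tshz1, a zinc finger factor, was at 18.7, 8.29 and 12.9 CPM against 234, 137 and 201 CPM (−3.76 ± 0.30), and Tox was lower by a similar amount (−3.52 ± 0.32).

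Lingo2, a membrane protein with leucine-rich repeats, had the smallest p of all, at 221, 120 and 171 CPM against 2841, 1981 and 1920 CPM (log2 fold change −3.68 ± 0.18; edgeR quasi-likelihood test, Benjamini-Hochberg adjusted p = 2.41e-05). Kcnmb2, a subunit of large-conductance potassium channels, had 2 UMIs in all in Drd2 spiny nuclei against 185 in Drd1 nuclei. It passed the filter on low counts through the Drd1 nuclei. Erbb4, the neuregulin receptor, was at 11.2, 112 and 87 CPM against 1971, 1877 and 3943 CPM. Cdh13, Adcy2 and Tcf4 completed the group. Tcf4 was not called when only Meis2-positive Drd1 nuclei were used (−0.67; edgeR quasi-likelihood test, Benjamini-Hochberg adjusted p = 0.266), and Adcy2 was not with Drd1 nuclei of at least 2 Drd1 UMIs (adjusted p = 0.0845 in edgeR).

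Of the indirect-pathway genes tested, Gucy1a1, Oprd1 and Grik3 were higher and 1 was not called. Oprd1 passed the filter on low counts through the Drd2 spiny nuclei, so that no count over the tested members is read. Gucy1a1, a subunit of the nitric oxide receptor guanylyl cyclase, was at 228, 240 and 197 CPM against 53.1, 98.5 and 93.8 CPM (1.50 ± 0.25). Oprd1, the delta opioid receptor to which enkephalins bind, was at 101, 62.2 and 51.6 CPM against 14.2, 16.4 and 17.9 CPM (2.18 ± 0.42). Grik3, a kainate receptor subunit, was at 239, 249 and 187 CPM against 152, 32.8 and 75.9 CPM (1.39 ± 0.33). The call of Oprd1 was lost without 3M-1 (edgeR adjusted p = 0.108), that of Grik3 without 3M-2 (0.0737), and that of Gucy1a1 with Drd1 nuclei of at least 2 Drd1 UMIs (0.0719). Upb1 and Sp9, which did not pass the filter on low counts, were at 18.7, 37.3 and 25.8 CPM against 0 in each library, and at 48.6, 29.0 and 22.6 CPM against 14.2, 21.9 and 4.47 CPM.

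Of the direct-pathway genes, Ebf1 and Tac1 were lower, and both passed the filter on low counts through the Drd1 nuclei, so that no count over the tested members is read. Tac1 had 2 UMIs in Drd2 spiny and 78 in Drd1 nuclei, a ratio of 46.3-fold (95% counting interval 12.4 to 389), and the adjusted p of edgeR was 0.000428. Pdyn, the precursor of dynorphins, had 0 UMIs against 20, at least 7.92-fold lower. Isl1 had 0 against 12, at least 4.75-fold lower.

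Of the 5 matrix genes, all tested, Epha4 and Id4 were higher and 0 were lower. Id4 passed the filter on low counts through the Drd2 spiny nuclei, so that no count over the list is read. Id4, an inhibitor of basic helix-loop-helix factors, was at 33.7, 87 and 48.4 CPM against 7.08, 5.47 and 4.47 CPM (3.11 ± 0.61), and was not called by DESeq2 (adjusted p = 0.102). Gda, Calb1 and Rasgrp2 did not pass, with log2 fold changes of 0.47, 0.77 and 1.01. Summed, the matrix genes took 685, 667 and 648 CPM in Drd2 spiny and 265, 301 and 259 CPM in Drd1 nuclei. Of the 5 striosome genes tested, 0 were higher and 1 was lower, Tac1, with a median log2 fold change of −0.46. Tac1 passed the filter on low counts through the Drd1 nuclei. Summed, the striosome genes took 367, 435 and 438 CPM in Drd2 spiny and 432, 750 and 670 CPM in Drd1 nuclei. Oprm1, the mu opioid receptor, was at 153, 170 and 171 CPM against 131, 98.5 and 156 CPM. Its log2 fold change of 0.38 ± 0.22 did not pass.

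Of 21 pan-spiny genes tested, 3 were higher, the phosphodiesterase Pde7b (0.84 ± 0.15), Phactr1 (0.87 ± 0.15) and the forkhead factor Foxp1 (0.86 ± 0.21), 0 were lower and the median log2 fold change was 0.34. Against Meis2-positive Drd1 nuclei only Phactr1 of these passed, with edgeR adjusted p-values of 0.0838 for Pde7b and 0.064 for Foxp1, and Foxp1 was also lost without 3M-1 (0.113), and Phactr1 with Drd1 nuclei of at least 2 Drd1 UMIs (0.077). Meis2 was at 1571, 1695 and 1596 CPM against 1391, 1275 and 1389 CPM, and Rgs9 at 329, 278 and 419 CPM against 212, 400 and 259 CPM, where the populations overlapped. Of 17 genes of dopamine and cAMP signalling tested, 2 were higher, Pde7b and Gnb5, and 0 lower (median 0.48). Gnb5, a partner of Rgs9, was at 217, 157 and 193 CPM against 42.5, 115 and 89.3 CPM (1.31 ± 0.32), and was lost without 3M-1 (edgeR adjusted p = 0.172).

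Of the receptors for peptides and other modulators, 8 were tested, with 3 higher and 1 lower, beside 2.17% and 3.11% over all genes tested. Oprd1 passed the filter on low counts through the Drd2 spiny nuclei, so this count is not read as a result about the list. Htr2c, a serotonin receptor, was at 572, 249 and 413 CPM against 106, 98.5 and 161 CPM (1.78 ± 0.25; edgeR quasi-likelihood test, Benjamini-Hochberg adjusted p = 0.00361), and Oprd1 and Htr4 were the others. Htr4 was lost without 6M-1 (edgeR adjusted p = 0.0785) and against Meis2-positive Drd1 nuclei (log2 fold change 0.72; edgeR adjusted p = 0.0681). Tacr1, the substance P receptor, had 0 UMIs against 57, at least 22.6-fold lower. It passed the filter on low counts through the Drd1 nuclei and was not called by DESeq2 (adjusted p = 0.238). Of 23 ionotropic glutamate and GABA-A receptor genes tested, 1 was higher (Grik3) and 3 lower (Grik1, Grik2 and Gria4). Gria4 was lost without 3M-1 (edgeR adjusted p = 0.139), by DESeq2 (0.157) and with Drd1 nuclei of at least 2 Drd1 UMIs (edgeR adjusted p = 0.122), and Grik1 in the last of these (0.0932). Of 22 potassium and sodium channel genes tested, 1 was higher (Kcnd3) and 3 lower (Kcnip1, Kcnj6 and Kcnj3).

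Of the 10 interneuron genes, only Npy, Adarb2 and Nxph1 passed the filter on low counts, Npy through the Drd1 nuclei. They were lower in Drd2 spiny nuclei, with the make-up of the Drd1 nuclei given above, and no count over the list is read. Nxph1 was not called against Meis2-positive Drd1 nuclei (log2 fold change −0.22; edgeR adjusted p = 0.95). Adarb2 was, at −4.99 ± 0.40. Npy was not tested there: it had 48, 42 and 0 UMIs in the Drd1 nuclei, of which 47, 41 and 0 came from nuclei without 2 Meis2 UMIs.

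Compared with cortical-type interneurons of the same 3 mice (399, 393 and 461 nuclei with Gad1 or Gad2 and with Lhx6 or Adarb2, without Rarb), the same Drd2 spiny sums had 2292 of 11976 genes called (19.1%), 1114 higher and 1178 lower (9.3% and 9.84%). The spiny genes were higher as a group: 20 of 23 pan-spiny genes were higher and 0 lower, with a median log2 fold change of 2.59 against −0.07 over all genes tested. Pde10a, Spock3 and Foxo1 were the ones that did not pass.

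Meis2 was at 136, 129 and 134 CPM in the interneurons, so its log2 fold change was 3.69 ± 0.13 (SE, n = 3 mice; edgeR quasi-likelihood test, Benjamini-Hochberg adjusted p = 1.17e-14). Rgs9 was at 23.9, 18 and 21 CPM (4.12 ± 0.18) and Pde7b at 114, 121 and 103 CPM (3.72 ± 0.13). In none of the 3 did the populations overlap. Ppp1r1b was at 1.44, 1.63 and 0.796 CPM in the interneurons (5.30 ± 0.53).

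**Figure D2:**
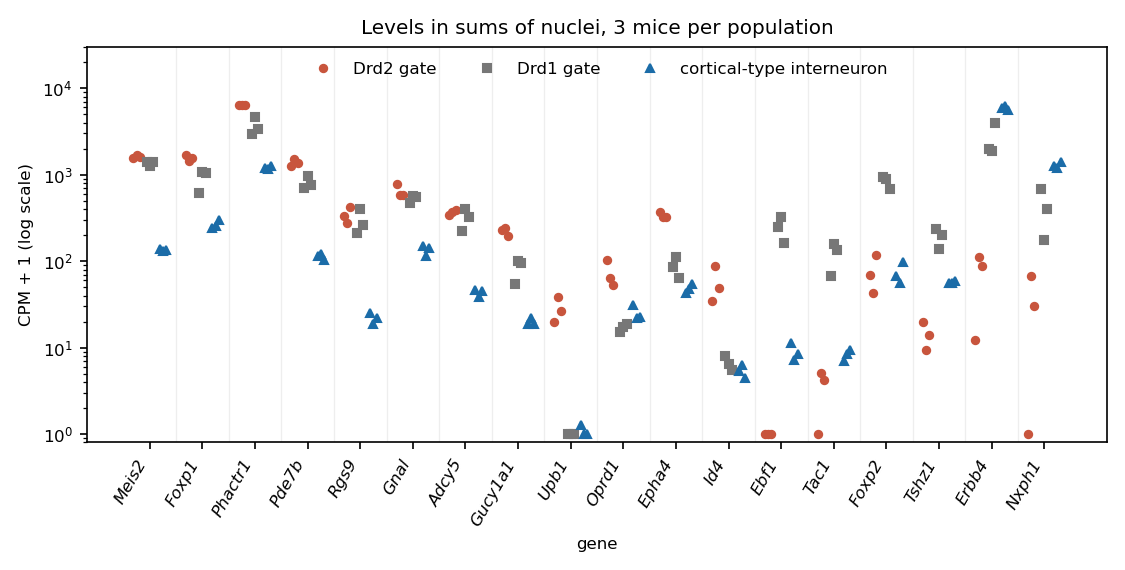
Levels of 18 genes as CPM plus 1 on a log axis in Drd2 spiny nuclei (circles), Drd1 nuclei (squares) and cortical-type interneurons (triangles), with 1 point for each of 3M-1, 3M-2 and 6M-1. Meis2 and Rgs9 lie above the interneurons in each library, and Foxp2 lies below the Drd1 nuclei.

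The signalling chain that links dopamine and adenosine receptors to cAMP was higher in 14 of 18 genes tested and lower in 0 (median 1.85). This list overlaps the pan-spiny list. Of the 14, Adcy5, Gnal, Gng7, Pde1b, Pde7b, Ppp1r1b, Ptpn5, Rasd2 and Rgs9 were already counted among the pan-spiny genes above. Gnb5, Pde2a, Pde4b, Ppp1r1a and Prkar2b were not. Adcy5, the main adenylyl cyclase of spiny neurons, was at 344, 373 and 393 CPM against 45.6, 37.6 and 44.6 CPM (3.20 ± 0.16). Gnal, the stimulatory G protein α subunit of the striatum and olfactory system, was at 786, 584 and 587 CPM against 148, 114 and 140 CPM (2.36 ± 0.13). Gng7, Pde1b, Ptpn5, Rasd2 were also higher.

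Of the receptors, 7 of 13 tested were higher and 3 lower. Htr4 (2.53 ± 0.19) and Htr2c (1.04 ± 0.16) were higher. Oprm1, Htr1b and Npy1r were among those called but lost in at least 1 alternative. Cnr1, the cannabinoid receptor, was lower, at 7.48, 4.14 and 16.1 CPM against 199, 219 and 152 CPM (−4.16 ± 0.33). The neuropeptide genes tested passed the filter on low counts mostly through the interneurons, and the 10 of the list summed to only 33.7, 66.3 and 41.9 CPM in Drd2 spiny nuclei. Vip was at 11.2, 0 and 3.22 CPM against 168, 235 and 179 CPM.

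**Figure D3:**
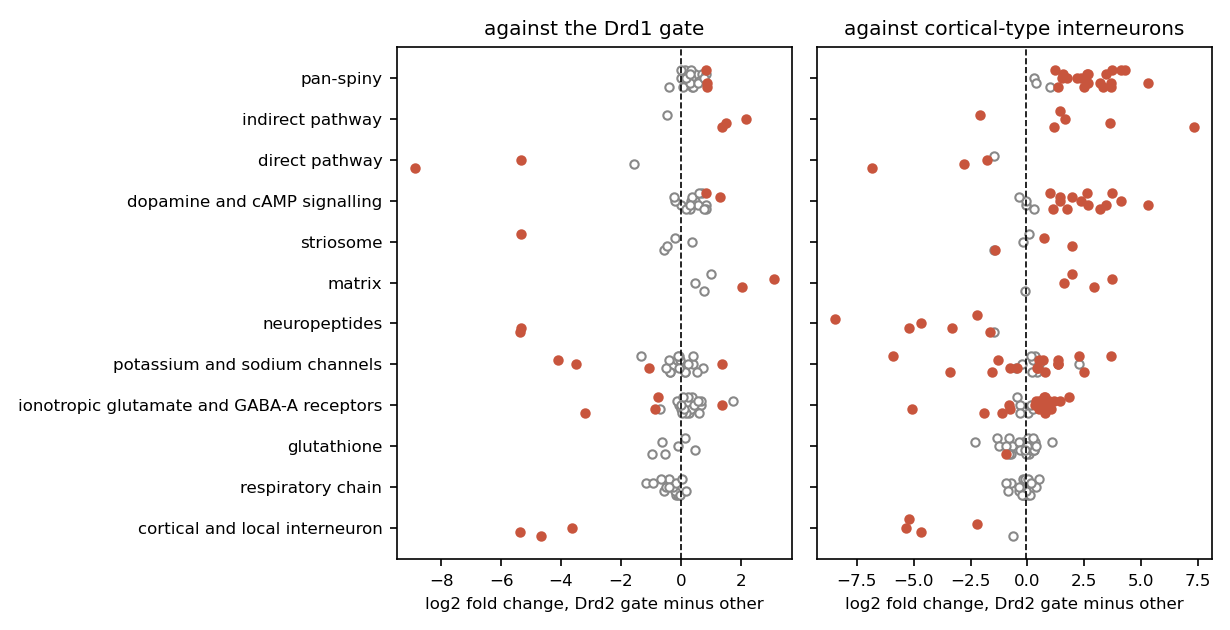
Log2 fold changes of Drd2 spiny nuclei against Drd1 nuclei (left) and against cortical-type interneurons (right) by gene list, with 1 point per gene tested, filled where it was called, and a dashed line at the median of all genes tested. Pan-spiny genes have a median of 0.34 on the left and 2.59 on the right.

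The subunit composition of ion channels differed in both directions. Of 24 ionotropic glutamate and GABA-A receptor genes, 13 were higher, among them Gabra2 and Grik3, and 5 were lower. Of the 13, 6 were lost in at least 1 alternative. Without a library, these were Gabrg1 (edgeR adjusted p = 0.0631 without 3M-2), Gria2 (0.071 without 6M-1), Grin2b (0.131 without 3M-1 and 0.105 without 6M-1), and Gabra5 and Gria1, each lost whichever library was left out. Grin1 was lost with the stricter gate, which asks for 3 Rarb UMIs and 3 of the 4 markers (edgeR adjusted p = 0.253), and without the replicate block (0.0675). Of 26 potassium and sodium channel genes, 11 were higher and 6 lower, of which 4 and 1 were lost in at least 1 alternative. Kcnd2, which carries A-type current, was at 3408, 2855 and 3762 CPM against 1295, 1414 and 1441 CPM (1.35 ± 0.11), and its partner Kcnip2 was also higher (2.51 ± 0.20). Kcnc2, of fast-spiking interneurons, was lower (−0.78 ± 0.13).

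The genes with the smallest adjusted p among those lower were Tcf4, Erbb4, Npas3, Kcnmb2, Lingo2, Grik1, Nfib, Kcnip1, Luzp2 and Galntl6. Apart from Kcnmb2, their log2 fold changes ranged from −2.64 for Galntl6 to −6.34 for Erbb4. Kcnmb2 passed the filter on low counts through the interneurons. It had 2 UMIs in Drd2 spiny nuclei against 5781 in interneurons, a ratio of 244-fold (counting interval 67.6 to 2018.5). On the higher side, Phactr1, Nrg1, Celf2, Foxp1, Arhgap10, Otof and Slit3 joined Meis2, Pde7b and Rgs9, with values from 2.37 for Celf2 to 4.12 for Rgs9. Nrg1, a ligand of the receptor encoded by Erbb4, was at 5212, 4471 and 5158 CPM in Drd2 spiny nuclei and 1075, 767 and 956 CPM in interneurons, the reverse of Erbb4 (11.2, 112 and 87 against 5873, 6221 and 5665 CPM).

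Homer1, a scaffold of the synapse, was at 195, 377 and 351 CPM against 116, 129 and 140 CPM (1.32 ± 0.16), and Plk2 at 105, 145 and 110 CPM against 41.5, 61.7 and 53.9 CPM (1.28 ± 0.20). Homer1 and Egr1 were the 2 higher of 13 immediate early genes tested, and Plk2 the 1 higher of 9 of the p53 list, beside 9.3% higher over all genes tested. Egr1, at 3.74, 66.3 and 45.1 CPM against 12.1, 21.6 and 12.7 CPM, overlapped between the populations and was lost without 3M-2 (edgeR adjusted p = 0.227) and without 6M-1 (0.196).

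Against excitatory nuclei of the same libraries (2434, 3154 and 2312 nuclei with at least 2 Slc17a7 UMIs and no Gad1 or Gad2), 2277 of 17141 genes were called (13.3%), 733 higher and 1544 lower (4.28% and 9.01%). Pan-spiny genes were higher in 18 of 23 and lower in 1, Arpp21 (median 2.20 against −0.17 over all genes tested). Excitatory markers were lower in 6 of 7, of which Tbr1 was lost whichever library was left out, and the matrix list was higher in 5 of 5, of which Epha4, Calb1 and Gda were lost when a library was left out. Pde1c, a cyclic nucleotide phosphodiesterase, was at 303, 282 and 390 CPM against 9.93, 13.1 and 10.1 CPM (4.71 ± 0.17), and Tafa1 at 41.2, 29 and 25.8 CPM against 1367, 1800 and 1559 CPM (−5.81 ± 0.20). Of the immediate early genes, Nr4a2 (1, 0 and 0 UMIs) and Bdnf (2, 1 and 0 UMIs) were lower and passed the filter on low counts through the excitatory nuclei. Nr4a1, Nr4a3 and Homer1 were called lower too but lost, Nr4a3 whichever library was left out, Nr4a1 without 3M-1 (edgeR adjusted p = 0.0906) and Homer1 by DESeq2 (adjusted p = 0.0629) and without the replicate block. The 3 comparisons share the Drd2 spiny sums, so their results are not independent of one another.

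Gclc (chr9:77754535-77794485, + strand of GRCm38), the gene targeted in these mice, was at 48.6, 41.4 and 51.6 CPM in Drd2 spiny nuclei (13, 10 and 16 UMIs). It was at 24.8, 60.2 and 26.8 CPM in Drd1 nuclei, 46.7, 39.2 and 38.8 CPM in interneurons and 42.2, 34.1 and 34.7 CPM in excitatory nuclei of these libraries. The log2 fold changes of 0.46 ± 0.43, 0.28 ± 0.27 and 0.18 ± 0.27 did not pass. Counting at the 3′ end does not check the deletion, and without a wild-type library its extent in these nuclei was not measurable. Camk2a, a kinase gene whose promoter is the usual driver of CaMKII-Cre, was at 640, 522 and 451 CPM in Drd2 spiny nuclei, between interneurons (346, 279 and 310 CPM; log2 fold change 0.87 ± 0.13) and excitatory nuclei (861, 778 and 648 CPM; −0.69 ± 0.13). Both differences passed (edgeR quasi-likelihood test, Benjamini-Hochberg adjusted p = 3.1e-05 and 8.61e-07).

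Of the 35 glutathione genes, 6 were tested against Drd1 nuclei, of which 0 passed, 24 against interneurons, of which 1 was lower, and 31 against excitatory nuclei, of which 3 were lower, beside 9.84% and 9.01% lower over all genes tested. The medians of the list were −0.32, −0.16 and −0.12, beside 0.00, −0.07 and −0.17 over all genes tested. Slc3a2, a subunit of the cystine transporter, was lower than in interneurons, at 52.4, 29 and 32.2 CPM against 75, 83.3 and 76.4 CPM (−0.95 ± 0.27), but the call was lost without 3M-2 (edgeR adjusted p = 0.122) and without 6M-1 (0.0599). It was also lower than in excitatory nuclei with Txnrd2 and Mgst3, and each of these 3 calls was lost when a library was left out. Summed, the list took 614, 584 and 625 CPM in Drd2 spiny nuclei. The 18 integrated stress response genes held 18, 15 and 24 UMIs in Drd2 spiny nuclei. Slc7a5 and Mthfd2, which passed the filter on low counts through the interneurons, were lower than in these, and both calls were lost by DESeq2. Mthfd2 was also lost without 3M-2 (edgeR adjusted p = 0.387) and without 6M-1 (0.135). Of 24 respiratory chain genes 0 were called against interneurons. Against excitatory nuclei 1 was lower, Uqcrc1 (−0.92 ± 0.32), and it was lost without 3M-1 (edgeR adjusted p = 0.373) and without 3M-2 (0.239).

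Markers of other cell types differed between the libraries of Drd2 spiny nuclei. The 8 oligodendrocyte genes summed to 82.3, 738 and 632 CPM, with Mbp the most abundant. At least 10 UMIs of oligodendrocyte genes were present in 0, 3 and 4 nuclei, all 7 of which Scrublet called doublets. Mbp and Mog were called higher than in interneurons. Without these nuclei and 1 with interneuron genes, Mog had a log2 fold change of −1.94, and without 3M-2 neither Mbp nor Mog was called (edgeR adjusted p = 0.146 and 0.463). The microglial genes summed to 63.6, 166 and 235 CPM, with P2ry12 the most abundant, the 6 astrocyte genes to 15.0, 37.3 and 61.2 CPM with Slc1a2 the most abundant, and the 5 vascular genes to 0, 0 and 3.22 CPM with Cldn5 alone above 0.

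The age of the mice was compared with 6M-1 alone against 3M-1 and 3M-2. The spread was taken from the trend over genes, so p-values of this comparison do not measure the spread of a single gene between mice. Of 5706 genes tested, 7 were called (0.123%), all higher in 6M-1, and 228 had an unadjusted p under 0.05. DESeq2 called 0. Without the 8 nuclei that held genes of oligodendrocytes or interneurons, 0 were called by edgeR. For comparison, 6M-1 lay above or below both 3-month libraries in 64.4% of the genes tested.

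The UMIs of the 7 genes were spread unequally over nuclei. Gpc5, a glypican, was at 7.48, 16.6 and 164 CPM, and 37 of its 51 UMIs in 6M-1 came from 1 nucleus (log2 fold change 3.78 ± 0.59; edgeR quasi-likelihood test, Benjamini-Hochberg adjusted p = 7.56e-07). Nrg3, a neuregulin, was at 370, 240 and 851 CPM, and in 6M-1 it was detected in 21 of 29 nuclei, with 80 of 264 UMIs from 1 of them. Dscam, a cell adhesion molecule, was at 29.9, 24.9 and 132 CPM, from 3 nuclei in 6M-1. St18 and Ptgds, both known from oligodendrocytes, were at 0, 37.3 and 113 CPM and at 0, 41.4 and 129 CPM. Neat1, a nuclear long noncoding RNA, and Pcdh15, a protocadherin, were the others, at 3.74, 37.3 and 116 CPM and at 18.7, 87 and 181 CPM.

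In each list with a tested member other than that of the oligodendrocytes, 0 genes were called with age. For the 21 pan-spiny genes the median log2 fold change was 0.03. It was 0.01 for the 17 genes of dopamine and cAMP signalling and −0.16 for the 7 glutathione genes, beside −0.03 over all genes tested. The difference between the changes with age in Drd2 spiny and in Drd1 nuclei was called in 23 of 6436 genes (0.357%), 21 higher and 2 lower (0.326% and 0.0311%), and DESeq2 called 0.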

How the data were processed

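Cortical nuclei of 4 GCLC-KO mice were profiled by 3′ single-nucleus RNA-seq, 1 library per mouse. The deposited values are UMI counts for each gene in each nucleus, which the authors made with Cell Ranger 7.0.0 (per the file headers) on mm10 (per the labels) and did not normalize. The number of per-sample columns not used was 0. The labels gave the age and the replicate of each library. Members, lists and tests were chosen with earlier results of these data known.

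The study's filter (at most 7000 genes and 1% mitochondrial UMIs) was applied, and nuclei were gated by UMIs of marker genes. UMIs were summed per mouse and population where a sum held at least 10 nuclei, which left out 6M-2 for Drd2 spiny nuclei. With Drd1 at 2 or more UMIs, as first designed, the Drd1 sums held fewer than 10 nuclei, so 1 or more UMIs, listed from the start as another setting, was used. Cortical-type interneurons had a Gad1 or Gad2 UMI, at least 2 UMIs of Lhx6 and Adarb2, and 0 of Slc17a7, Rarb, Drd1 and Drd2. Oligodendrocyte-type nuclei had at least 10 UMIs of oligodendrocyte genes and 0 of Gad1, Gad2 and Slc17a7. The sums, from 182695 to 34655200 UMIs, were compared with edgeR 4.0.16 (limma 3.58.1, R 4.3.3; TMM normalization, filterByExpr, quasi-likelihood test, mouse as a block except for age) and p-values adjusted over all tested genes after Benjamini-Hochberg, at a threshold of 0.05. Gate genes stayed in the library sizes and out of the calls. The residual degrees of freedom were 2, or 1 with age in the model. The prior degrees of freedom were infinite against excitatory nuclei and with age in the model, where the trend over genes gave the spread. Shares were compared with exact permutation tests, and nuclei were thinned to 2000 UMIs (seed 1). Doublets were called with Scrublet (scanpy 1.11.5) and kept. Each test was checked on simulated data.

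The alternatives were DESeq2 1.42.0, RLE size factors, no filter on low counts, a stricter gate (at least 3 Rarb UMIs and 3 of the 4 markers), doublets left out, no replicate block, leaving out each library, and thinning to 1000 UMIs. Added after seeing the data were Drd1 nuclei with 2 or more Drd1 UMIs in sums of at least 5 nuclei, Drd1 nuclei with 2 or more Meis2 UMIs, and members without 10 UMIs of oligodendrocyte or 2 of interneuron genes.

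Named were the gate genes, the genes of 23 lists, Gclc, Camk2a, sex-linked genes, and up to 10 genes per direction with the smallest adjusted p and the same direction in each mouse. Some of these genes are not reported here. Xist was at 1870, 1726, 1829 and 1909 CPM in the 4 libraries. Identifiers of all 18 genes looked up matched GENCODE M21 (GRCm38), and promoter windows were from RefSeq (GRCm38.p6).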

Additional observations from a re-analysis of the deposited data

Results flagged for a closer look

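Whether the difference between 6M-1 and the 3-month mice was itself different in Drd2 spiny and in Drd1 nuclei was tested by an interaction term, and 23 of 6436 genes were called (0.357%). Given here are those among them that changed in the same direction in each mouse, with the smallest adjusted p, or that belong to the lists, as the log2 difference between both changes, from a design with 1 mouse at 6 months. It was 3.83 for Alk, 3.29 for Dscam, 4.33 for Adarb2, 3.52 for Ankfn1, 2.43 for Pcdh15, 2.36 for Egfem1, 3.15 for Farp1, 6.13 for Nos1, 5.05 for St18, 9.97 for Sst and −2.52 for Clstn2. St18, of the oligodendrocyte list, had 0, 9 and 35 UMIs in Drd2 spiny and 13, 8 and 2 in Drd1 nuclei. Sst, of the interneuron list, had 0, 1 and 5 against 11, 20 and 0, and with counts of 0 the size of its fitted difference depends on the prior count. Of the 22 Adarb2 UMIs of Drd2 spiny nuclei in 6M-1, 18 came from 1 nucleus. Nos1 had 125, 28 and 4 UMIs in the Drd1 nuclei of 3M-1, 3M-2 and 6M-1, of which 123, 28 and 0 came from nuclei without 2 Meis2 UMIs. None of the 11 was called by DESeq2, without the replicate block, or when the 8 Drd2 spiny nuclei with oligodendrocyte or interneuron genes were left out, where Adarb2 and St18 were not among the genes tested. In Drd2 spiny nuclei alone, Dscam, Pcdh15 and St18 were also called for age.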

How the results depend on the processing

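Each named gene kept its direction against Drd1 nuclei, with age and in the interaction in every alternative in which it was tested, and 453 of 485 values against Drd1 nuclei also kept their side of the threshold. DESeq2 called 135 genes against Drd1 nuclei, 1420 against interneurons, 1369 against excitatory nuclei, 0 with age and 0 in the interaction. Without a filter on low counts 485 genes were called against Drd1 nuclei, and with Drd1 nuclei of 2 or more Drd1 UMIs 147, and 6 in the interaction. The stricter gate gave 1380 against excitatory nuclei and 8 in the interaction. Without doublets 2 genes were called with age and 10 in the interaction. Without nuclei that held other types' markers 0 were called in both, and with Meis2-positive Drd1 nuclei 5 in the interaction. Without the replicate block 266 genes were called against Drd1 nuclei, 1928 against interneurons, 1484 against excitatory nuclei and 0 in the interaction, and for the age comparison no paired analysis was possible because the block left no residual degrees of freedom. Leaving out a library gave 248 to 350 calls against Drd1 nuclei, 1779 to 2068 against interneurons and 1611 to 1620 against excitatory nuclei, and could not be tested for age or the interaction. RLE size factors moved the split against excitatory nuclei from 733 higher and 1544 lower to 883 and 1248. Thinned to 1000 UMIs, shares were 76.7% for Meis2, 27.9% for Rgs9 and 31.4% for Epha4, and unthinned 100%, 80.2%, 88.4% and, for Foxp2, 16.3%. Oligodendrocyte genes reversed. Against interneurons Mog was at −1.94 without nuclei with other types' markers. Against excitatory nuclei Mobp (−0.95) and Mbp (−0.21) reversed with the stricter gate, St18 (−2.39), Mobp (−0.58), Mog (−0.034) and Mbp (−0.75) without doublets, and Mobp (−1.33), Aspa (−1.15) and Mog (−1.58) without nuclei with other types' markers. Beyond these constructions the causes were not tested. With 24 to 33 nuclei a library, a count of 0 allowed up to 11.2, 12.4 and 9.67 CPM in the sums of 3M-1, 3M-2 and 6M-1.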
